A study of Mus musculus with 3 samples.

Results

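The genes described here are the 37 genes on chromosome M, the mitochondrial genome, in the mouse annotation GENCODE M21. They were matched by Ensembl identifier and make up 37 of 52636 genes in the deposited tables. They comprise 13 protein-coding genes, 2 ribosomal RNA genes and 22 transfer RNA genes, 28 annotated on the plus strand and 9 on the minus strand. The study set lymphomas without Cic, the gene of the repressor capicua, against normal thymus, where precursors become T cells. The samples used here are the 3 control thymi, called thymus 1, 2 and 3, of C57BL/6 mice of the genotype Cic flox/flox + TAM, which had received tamoxifen. The labels name no Cre driver, age or sex for them, so the group is a control with floxed Cic alleles and tamoxifen in every animal, and the lymphomas are not analysed here. The libraries were made with a stranded kit for polyadenylated RNA. The deposited reads per gene are split by strand, and both strands are described below.

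The mitochondrial genome encodes core subunits of the respiratory chain and of ATP synthase, with the ribosomal and transfer RNAs needed to translate them inside the organelle. It is transcribed on both strands into long precursors, from which transfer RNAs are cut out as punctuation between the messenger and ribosomal RNAs. Most genes are read into plus-strand RNA, while mt-Nd6 and 8 transfer RNA genes are read into minus-strand RNA. Most mitochondrial messenger RNAs receive a short poly(A) tail, and for some this tail completes the stop codon. Pieces of mitochondrial DNA have been copied into nuclear chromosomes during evolution, and short reads cannot always tell such a copy from its source.

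Some letters of the genome bear directly on what follows, so they are shown first. mt-Co2, which encodes cytochrome c oxidase subunit 2, is set beside its 2 annotated nuclear copies, because it is a gene for which no read was counted. The first 80 bases of mt-Co2 (chrM:7013-7092, plus strand, GRCm38) are given with those of Gm28661 (chr1:24615486-24615565, minus strand) and Gm13341 (chr2:22587883-22587962, minus strand). Capitals mark the bases at which Gm13341 and mt-Co2 differ, and Gm28661 has no difference here.
mt-Co2: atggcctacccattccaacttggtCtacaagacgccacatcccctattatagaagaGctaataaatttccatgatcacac
Gm28661: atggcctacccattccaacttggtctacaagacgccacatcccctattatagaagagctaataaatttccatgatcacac
Gm13341: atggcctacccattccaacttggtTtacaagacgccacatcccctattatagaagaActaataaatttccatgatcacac
Counted from the first base of mt-Co2, these differences are C25T and G57A. Over their whole alignments, Gm28661 matched mt-Co2 at 100% of 681 bases and Gm13341 at 95.9% of 684 bases.

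The copy on chromosome 1 begins inside mt-Co1, the gene of cytochrome c oxidase subunit 1. The window below covers bases 1054 to 1113 of mt-Co1 (chrM:6381-6440) and the start of Gm29216 (chr1:24616138-24616197, minus strand), with differing bases in capitals.
mt-Co1: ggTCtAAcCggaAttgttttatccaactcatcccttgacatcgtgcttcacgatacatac
Gm29216: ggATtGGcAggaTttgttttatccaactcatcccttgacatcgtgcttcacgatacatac
The differences are T1056A, C1057T, A1059G, A1060G, C1062A and A1066T, counted from the first base of mt-Co1. Beyond them the copy has no other difference up to the end of mt-Co1.

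The same copy ends inside mt-Nd4, a complex I subunit gene. In the window of bases 837 to 916 of mt-Nd4 (chrM:11003-11082) the copied part is in lower case and the part beyond the copy in capitals.
mt-Nd4: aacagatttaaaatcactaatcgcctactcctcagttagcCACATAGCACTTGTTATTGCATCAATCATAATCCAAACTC

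The first result is where reads were counted at all. Of the 37 genes, 12 had more than 3 own-strand reads in every thymus and 15 had 0 in all 3, 13 of these with 0 in every deposited column. Own-strand reads are those in the direction in which the gene is annotated. The 15 include 5 of the 13 protein-coding genes: mt-Co2 and mt-Co3, which encode oxidase subunits, mt-Atp8 and mt-Atp6, which encode ATP synthase subunits, and the complex I subunit gene mt-Nd4l. A sixth coding gene, mt-Nd3 of complex I, had 0, 1 and 0 reads in thymus 1, 2 and 3. No other coding gene lies between these 6 on the map. A count of 0 allows up to 3 reads, which is 0.0986, 0.102 and 0.122 CPM (counts scaled to library size) in thymus 1, 2 and 3, and this limit covers counting error only.

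These 6 coding genes lay inside a stretch that has a near-identical copy on chromosome 1. The 7 annotated copies on chromosome 1 match chrM:6390-11042 piece by piece and in the same order, over 4653 bases of chromosome M and 4654 bases of chromosome 1 (chr1:24611535-24616188). The spacing between the copies is the same as on chromosome M to within 1 base. There were 11 genes wholly inside this stretch, and none of them had more than 2 reads in a column of 1 strand, or more than 3 in the column of either strand, in any library. The percent of 50-base windows also found in transcripts of nuclear genes was 100% for mt-Co2, 99.9% for mt-Co3, 99.5% for mt-Atp6, 98.8% for mt-Nd4l and 98.0% for mt-Nd3. mt-Atp8 shared 0% of its 50-base windows with any nuclear transcript. Its last 43 bases, which are too short for such a window, lie in the part matched by Gm10925. With 36-base windows it shared 4.73%, with Gm10925. The rest of mt-Atp8 lies between the parts matched by Gm28661 and Gm10925. The chromosome 1 sequence between those copies is in no annotated transcript and was not used here.

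Outside the stretch, or partly outside it, the coding genes all had reads. mt-Nd1 and mt-Cytb shared 0% of their windows, mt-Nd2 8.19% and mt-Nd5 7.61%. mt-Co1 shared 51.1% and mt-Nd4 62.2%, and both kept many reads. The nuclear copies themselves collected few reads. Of 17 annotated copies, 16 were in the tables, and their own-strand reads summed to 162, 111 and 160 in thymus 1, 2 and 3. The copies with the most reads were Gm13340 with 72, 41 and 65, Gm29216 with 35, 19 and 27, Gm13341 with 14, 11 and 18, and Gm11410 with 10, 6 and 12. Reads that map to several places were 14.4%, 14.0% and 15.5% of all reads and entered no gene's count. How many of them came from mitochondrial RNA was not tested, so a 0 here is not a statement that the RNA was absent.

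**Figure D1:**
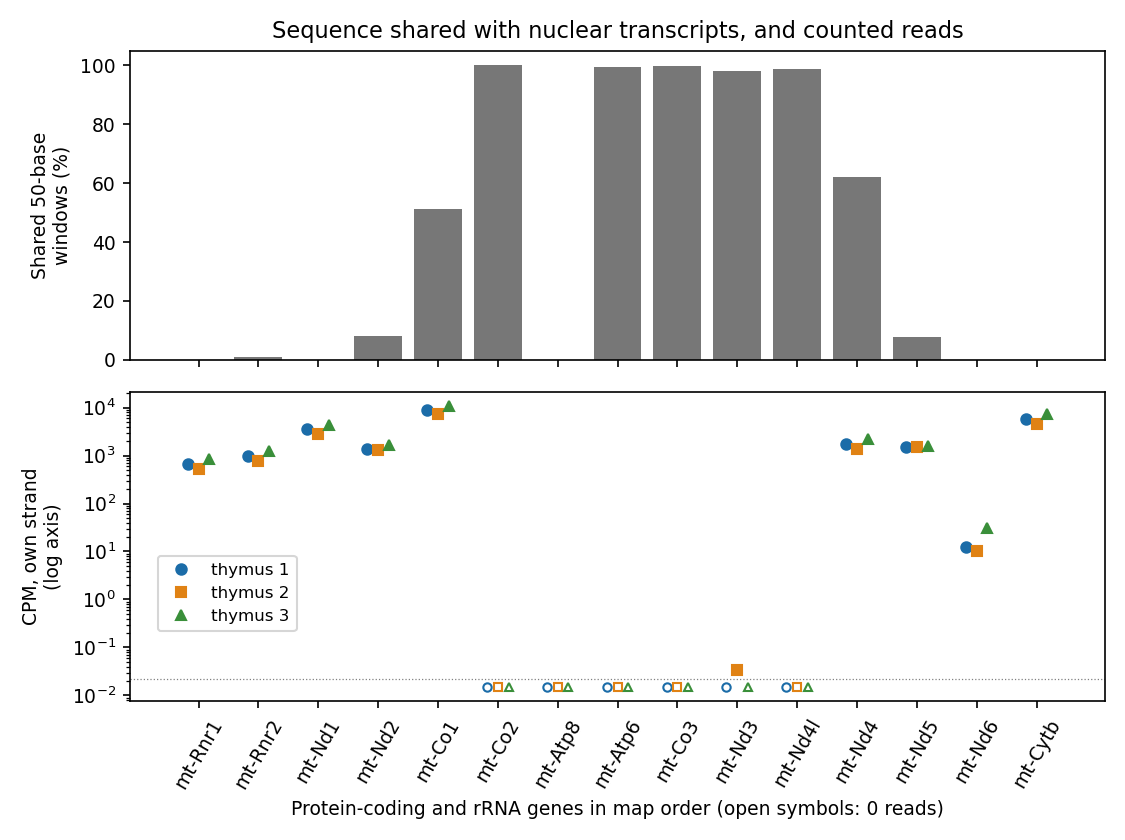
Upper panel: percent of each protein-coding or rRNA gene's 50-base windows that also occur in nuclear transcripts. Lower panel: own-strand CPM per thymus on a log axis, with open symbols for 0 reads. The genes from mt-Co2 to mt-Nd4l sit at or next to 0, and all but mt-Atp8 share between 98.0% and 100% of their windows.

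The 6 remaining genes with 0 own-strand reads lay outside the stretch and were transfer RNA genes: mt-Tf, mt-Tv, mt-Ta, mt-Th, mt-Ts2 and mt-Tl2. Mature transfer RNAs carry no poly(A) tail. A read that reaches into a neighbouring gene of the same strand is counted for neither. Over all 22 transfer RNA genes, own-strand reads summed to 160, 99 and 196, and 3 had more than 3 reads in every thymus: mt-Ti with 103, 61 and 122 reads, mt-Tm with 30, 22 and 34, and mt-Tw with 6, 5 and 7. All 3 are annotated beside a gene on the other strand.

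The second result is the level of each counted gene. The labelled tissue had its markers: all 12 thymocyte genes were above 1 CPM, with a median of 231 ± 4.83 CPM per kilobase (SD, n = 3). Own-strand reads of mitochondrial genes were 2.46%, 2.06% and 2.92% of all reads assigned to genes in thymus 1, 2 and 3, with 95% Wilson intervals of 2.45 to 2.47, 2.06 to 2.07 and 2.91 to 2.92. Thymus 3 was highest and thymus 2 lowest, by a ratio of 1.41, and no interval overlapped another. Protein-coding genes held 93.2%, 93.6% and 92.9% of these reads and the 2 ribosomal RNA genes 6.74%, 6.39% and 7.04%. All these shares leave out reads that map to several places, and how many of those were mitochondrial was not tested. Levels below are CPM scaled by edgeR's TMM method and divided by exon length, so that genes of different length can be compared. A bulk sample cannot tell fewer cells from less RNA per cell.

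mt-Co1, mt-Cytb and mt-Nd1 led. mt-Co1 was at 5713, 4725 and 6969 CPM per kilobase in thymus 1, 2 and 3 (mean 5802 ± 1124, SD, n = 3). mt-Cytb, the cytochrome b gene of complex III, was at 5134, 3978 and 6400 (5171 ± 1212). mt-Nd1 of complex I was at 3735, 2982 and 4602 (3773 ± 811). The ranges of neighbours in this order overlapped across thymi, while the order was the same within each thymus. All 3 genes stood above every other counted gene in every thymus. The coding genes inside the stretch copied on chromosome 1 were at or next to 0 reads, so their place in this order is not known. Within complex I the levels were unequal. mt-Nd2 was at 1320, 1239 and 1581 CPM per kilobase and mt-Nd4 at 1283, 981 and 1626, overlapping each other. mt-Nd5 was lower at 823, 812 and 847 CPM per kilobase. The level of mt-Nd2 was 0.353, 0.416 and 0.344 times that of mt-Nd1, its neighbour across 3 transfer RNA genes.

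Part of mt-Co1 and of mt-Nd4 is shared with nuclear transcripts. Divided by the number of unique 50-base windows in place of length, mt-Co1 was at 12264 ± 2377 CPM per 1000 windows, mt-Cytb at 5402 ± 1266, mt-Nd1 at 3976 ± 855 and mt-Nd4 at 3560 ± 887. On that scale the ranges of mt-Nd4 and mt-Nd1 overlapped, where per kilobase they did not. Within each thymus mt-Nd1 was still above mt-Nd4, at 3936, 3142 and 4851 against 3522, 2692 and 4465 CPM per 1000 windows. The first place of mt-Co1 among the counted genes held on both scales.

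The ribosomal RNA genes were below the leading messenger RNAs in these polyadenylated libraries. mt-Rnr1, the small subunit RNA gene, was at 706, 554 and 893 CPM per kilobase (718 ± 170), and mt-Rnr2, the large subunit RNA gene, at 621, 478 and 800 (633 ± 161). Their ranges overlapped each other, and within each thymus mt-Rnr2 was 0.880, 0.862 and 0.896 times mt-Rnr1. mt-Nd1, which follows mt-Rnr2 on the map after 1 transfer RNA gene, was 6.01, 6.24 and 5.76 times mt-Rnr2 per kilobase. Counted levels of RNAs outside mitochondria that lack long poly(A) tails were lower still. Reads that map to several places were not counted for these genes either, and how many they had was not tested. Among 8 such genes that were found, 7 lay below 1 CPM in every thymus, 3 of them at 0, and the most abundant, the small nuclear RNA gene Rn7sk, was at 4.35 ± 1.28 CPM per kilobase.

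mt-Nd6 encodes the only protein read from the other strand, a complex I subunit. Its own-strand level was 23.4, 20.0 and 60.2 CPM per kilobase, or 370, 305 and 770 reads. Thymus 3 stood apart from the other thymi, which were close to each other. This level was 2.85%, 2.47% and 7.11% of that of mt-Nd5, its neighbour. The next gene above it in the order, mt-Ti, overlapped it in range at 49.1, 30.1 and 71.7 CPM per kilobase, and was above it within each thymus.

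**Figure D2:**
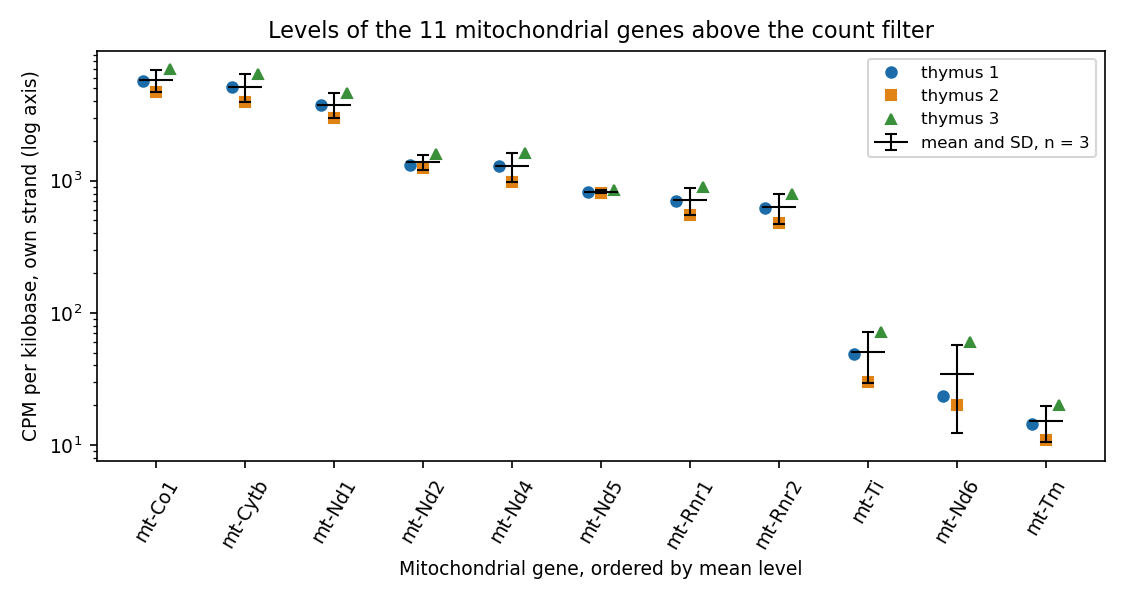
Own-strand level in CPM per kilobase on a log axis for the 11 mitochondrial genes that passed the filter on low counts, with 1 symbol per thymus and black bars for the mean and SD of 3 thymi. mt-Co1, mt-Cytb and mt-Nd1 lie at the top, mt-Nd5 has the narrowest spread, and mt-Nd6 lies far below the other coding genes shown.

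Some coding genes have a stop codon that is incomplete in the genome. mt-Co3, mt-Nd4 and mt-Cytb end in a single T after their last whole codon, which a poly(A) tail extends to TAA, while the other 10 coding genes end in TAA or TAG. Their last 15 bases are shown with that T in capitals.
mt-Co3: attgatgaggatctT
mt-Nd4: caggcctgacaataT
mt-Cytb: taaaattatatccaT
mt-Cytb was among the most abundant of the counted genes, mt-Nd4 was in the middle of the order and mt-Co3 was listed at 0.

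The third result concerns the opposite strand. Over all 37 genes 17449, 15856 and 17790 reads lay on the strand opposite to the annotated gene, 2.28%, 2.62% and 2.34% of the reads of both strands (95% Wilson intervals 2.25 to 2.31, 2.58 to 2.66 and 2.31 to 2.38). mt-Nd6 alone held 83.4%, 84.6% and 75.3% of them. Most reads over mt-Nd6 were thus not its own. In thymus 1, 2 and 3 there were 14559, 13414 and 13397 opposite-strand reads, that is plus-strand RNA, against 370, 305 and 770 own-strand reads. The plus-strand share was 97.5% (95% Wilson interval 97.3 to 97.8), 97.8% (97.5 to 98.0) and 94.6% (94.2 to 94.9), with a mean of 96.6 ± 1.79% (SD, n = 3).

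Reads over mt-Nd6 in plus-strand sense resembled mt-Nd5 in level. Both genes end where they meet, and their last 14 bases overlap. The last 40 bases of mt-Nd5 (chrM:13526-13565, plus strand) and of mt-Nd6 (chrM:13552-13591, minus strand) show the overlap in capitals.
mt-Nd5: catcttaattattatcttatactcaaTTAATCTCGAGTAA
mt-Nd6: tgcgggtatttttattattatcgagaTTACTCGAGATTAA
Per kilobase, plus-strand RNA over mt-Nd6 was 112%, 109% and 124% of that over mt-Nd5. In the column that ignores strand, reads that touch both genes are counted for neither, and 1270, 1203 and 1079 reads left mt-Nd5 and mt-Nd6 alike for this reason. Since no more than 370, 305 and 770 of them can be minus-strand RNA, at least 900, 898 and 309 were plus-strand RNA. A read needs to reach only the 14 shared bases to touch both genes, so these counts do not show how many ran past the annotated end of mt-Nd5. Without strand, mt-Nd6 would be listed at 13659, 12516 and 13088 reads in place of 370, 305 and 770.

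Other minus-strand genes had the same imbalance. mt-Tc, the cysteine transfer RNA gene, had 519, 552 and 418 opposite-strand reads against 1, 0 and 1 on its own strand. mt-Tp, for proline, had 161, 159 and 191 against 5, 1 and 6. mt-Te, for glutamate, had 123, 145 and 143 against 0, 0 and 1, and mt-Tq, for glutamine, had 136, 89 and 158 against 1, 0 and 15. The sequence of mt-Tc is printed 5′ to 3′ in its annotated sense (chrM:5192-5257, minus strand), since it is the transfer RNA gene with the most reads of either strand and nearly all of these are of the reverse complement.
mt-Tc: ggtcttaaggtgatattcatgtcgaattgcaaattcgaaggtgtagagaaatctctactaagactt

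Boundary reads could be counted where neighbours lie on opposite strands. Between mt-Te and mt-Cytb 123, 139 and 141 reads touched both genes, of which at least 123, 139 and 140 were plus-strand RNA. These are nearly all of the reads over mt-Te and a small part of the 178686, 133477 and 180467 own-strand reads of mt-Cytb. Between mt-Ti and mt-Tq there were 101, 61 and 129, and between mt-Ty and mt-Co1 15, 13 and 16. Most reads of mt-Ti, the most abundant transfer RNA gene on its own strand, thus also touched mt-Tq, whose annotation overlaps its last 3 bases.

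A share above 50% on the opposite strand was found in all 3 thymi for 4 of the 12 mitochondrial genes with at least 100 reads of both strands, namely mt-Nd6, mt-Tc, mt-Te and mt-Tp. Among all 12486 genes with that many reads it was 7.45%. All 4 are minus-strand genes. Of them, mt-Tc, mt-Te and mt-Tp reached 100 reads only through opposite-strand reads, with at most 6 own-strand reads in any thymus. For these transfer RNA genes a share above 50% follows from passing the limit, so their count adds no support. mt-Nd6 passed it on its own strand as well. Plus-strand genes had far lower shares, at 0.0953 ± 0.0105% for mt-Nd1, 0.0881 ± 0.0108% for mt-Co1, 0.201 ± 0.00377% for mt-Cytb and 0.677 ± 0.0814% for mt-Nd4 (SD, n = 3). Nuclear protein-coding genes without an annotated gene opposite them had a median of 0.115%, 0.116% and 0.111% over 6141 genes. The 27 of these above 1000 CPM had medians of 0.0815%, 0.0811% and 0.0876% and reached 0.465%, 0.407% and 0.470%. The shares of mt-Nd1, mt-Co1 and mt-Cytb lay inside the range of those 27 genes, and those of mt-Nd4 and of mt-Nd5, at 2.70 ± 2.12%, above it. Unlike these nuclear genes, mt-Nd5 and mt-Co1 are overlapped at their ends by annotated genes on the other strand, mt-Nd6 and mt-Ts1. The 95th percentile over all 6141 genes was 1.90%, 1.93% and 2.02% in thymus 1, 2 and 3. mt-Nd4 lay below it in every thymus, at 0.613%, 0.649% and 0.769%. mt-Nd5 lay below it in thymus 1 and 2, at 1.70% and 1.27%, and above it in thymus 3, at 5.14%.

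**Figure D3:**
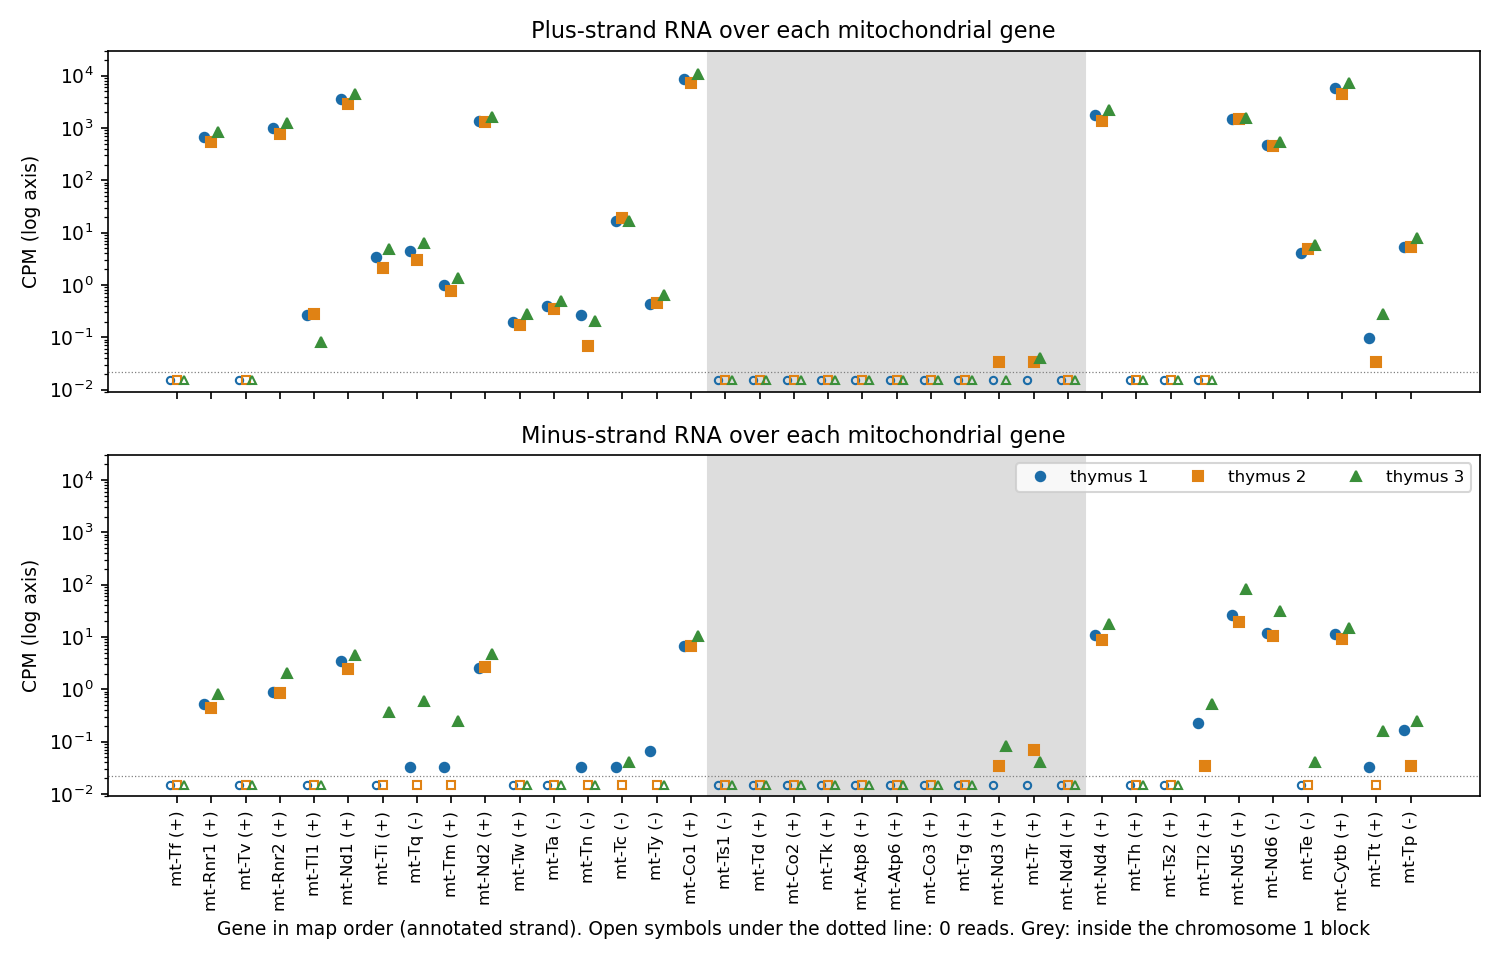
Reads in CPM on a log axis over each of the 37 genes in map order, as plus-strand RNA (upper panel) and minus-strand RNA (lower panel), with 1 symbol per thymus and open symbols for 0 reads. Grey marks the 11 genes inside the stretch copied on chromosome 1. Plus-strand RNA over the minus-strand gene mt-Nd6 lies between 457 and 544 CPM, and minus-strand RNA is highest over mt-Nd5 and mt-Nd6.

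The fourth result is how the 3 thymi differed. The filter on low counts kept 11 of the 37 genes, and all values in this paragraph are own-strand CPM. All 11 were highest in thymus 3 and lowest in thymus 2, an order found in 25.7% of the 16548 genes tested. mt-Cytb was at 5873, 4551 and 7322 CPM, mt-Rnr2 at 983, 756 and 1265 and mt-Nd4 at 1768, 1352 and 2241, with the highest thymus 1.61, 1.67 and 1.66 times the lowest. mt-Nd5 differed least, at 1501, 1480 and 1545 CPM, a ratio of 1.04, and mt-Nd2 had a ratio of 1.28. As a result mt-Nd5 was 0.256, 0.325 and 0.211 times mt-Cytb. mt-Nd6 differed most among the coding genes, at 12.2, 10.4 and 31.2 CPM, a ratio of 3.004.

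None of these differences passed the test of variability. By edgeR's quasi-likelihood test with Benjamini-Hochberg adjustment over all genes at 0.05, 0 of the 11 were called, against 0.0604% of all genes tested. The smallest adjusted p was 0.278 for mt-Nd6, and the other 10 were at 0.984 or above. At an unadjusted p under 0.05 there were 7 of 11 by edgeR, against 4.42% of all genes tested. DESeq2's dispersion check marked 1 of the 11, mt-Nd6, against 0.489% of all genes tested. Without thymus 1 the adjusted p of mt-Nd6 by edgeR was 0.0243, which passes, as for 0.151% of all genes tested there, and without thymus 3 it was 0.995. With no filter on low counts 7 of 22 mitochondrial genes were called, mt-Nd6 among them (edgeR adjusted p = 1.19e-13), against 0.924% of all genes in that fit. Of the 11, 10 varied beyond counting noise (edgeR goodness of fit, Benjamini-Hochberg 0.05), as did 43.4% of all genes tested. The exception was mt-Tm with 30, 22 and 34 reads. The labels do not say whether the thymi came from separate animals. The p-values therefore reflect the spread among these 3 libraries, which may be technical.

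Other properties of the libraries moved with the mitochondrial genes. The tested members have a median GC content of 35.8%, against 49.8% for all tested genes, and the Spearman correlation between GC content and a library's difference from the mean was −0.165, 0.416 and −0.290 in thymus 1, 2 and 3 across 16522 genes. The median log2 difference of the 11 members from the mean of the thymi was 0.0039, −0.35 and 0.34 in CPM. It was −0.027, −0.16 and 0.18 after the GC trend of each library was removed. On that scale mt-Nd5, mt-Nd2 and mt-Nd6 no longer had the order of the other 8, and 1 of the 11 was at an unadjusted p under 0.05 (edgeR) in place of 7, against 4.94% of all genes tested in place of 4.42%. mt-Nd5 was at −0.035, 0.16 and −0.12, and mt-Nd2 at −0.09, 0.06 and 0.03. mt-Nd6 was at −0.41, −0.37 and 0.79, with thymus 3 still the highest.

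**Figure D4:**
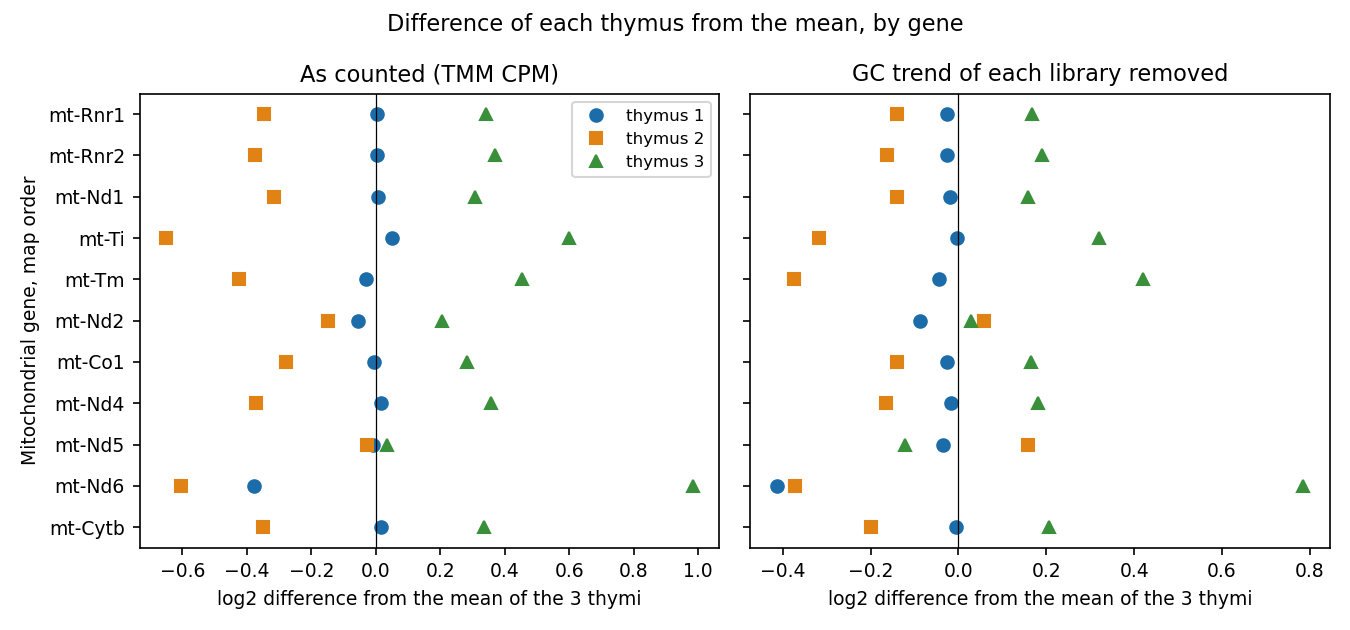
log2 difference of each thymus from the mean of the 3 thymi for the 11 mitochondrial genes above the count filter, from CPM (left) and after removal of each library's trend with GC content (right). In CPM all 11 genes have thymus 3 highest and thymus 2 lowest. After the correction mt-Nd2, mt-Nd5 and mt-Nd6 do not, and mt-Nd6 in thymus 3 stands farthest out on both sides.

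Markers of other cell types were also read. The 5 brown fat genes summed to 6.87, 9.82 and 31.1 CPM in thymus 1, 2 and 3, with the uncoupling protein gene Ucp1 at 0.789, 3.48 and 15.3 CPM and 1 of the 5, Elovl3, below 1 CPM in every thymus. The 10 muscle genes summed to 36.6, 35.5 and 38.3 CPM, with 7 below 1 CPM in every thymus. The 6 neutrophil genes summed to 19.9, 16.5 and 43.9 CPM. Other lists had another order: the 8 red cell genes summed to 1025, 47.9 and 225 CPM, the 8 macrophage and dendritic cell genes to 1181, 969 and 886, and the 6 fat genes to 194, 279 and 200.3. By the variability test 5 of the 6 tested red cell genes were called (edgeR adjusted p), against 0.0604% of all genes tested. None of the tested genes of the other lists in this paragraph was called. At an unadjusted p under 0.05 (edgeR) there were 3 of 4 tested brown fat, 0 of 4 muscle and 5 of 6 neutrophil genes. So were 3 of 8 macrophage and dendritic cell and 5 of 6 fat genes, against 4.42% of all genes tested. None of the genes in these lists was at 0 in all thymi. The 12 thymocyte genes summed to 14467, 13870 and 14976 CPM and the 6 B cell genes to 2234, 2180 and 2227. No gene of either list was at an unadjusted p under 0.05 (edgeR). The sums of thymocyte, muscle and neutrophil genes had the order thymus 3, 1, 2, as did that of mitochondrial genes. Brown fat genes had the order thymus 3, 2, 1. Sums of red cell, macrophage and B cell genes were highest in thymus 1 and that of fat genes in thymus 2. The part of these lists in the mitochondrial difference was not tested.

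The fifth result is minus-strand RNA, which was highest in thymus 3. It made up 0.3002%, 0.293% and 0.559% of the reads over all 37 genes (95% Wilson intervals 0.288 to 0.313, 0.280 to 0.307 and 0.542 to 0.576). Summed over the 6141 nuclear genes named above, opposite-strand reads were 0.335%, 0.329% and 0.350% of the reads of both strands. The mitochondrial minus-strand share was thus below that of these nuclear genes in thymus 1 and 2 and above it in thymus 3. These measures are not alike, since minus-strand RNA includes the own-strand reads of mt-Nd6 and the other minus-strand genes. Opposite-strand reads of plus-strand genes alone, the like measure, had a mean share of 0.323% over the thymi. How many of the minus-strand reads were reads placed on the wrong strand was not tested. mt-Nd5 and mt-Nd6 held 50.6%, 48.5% and 66.7% of the minus-strand reads. Over mt-Nd5 there were 792, 557 and 2062 minus-strand reads, or 26.03, 19.0 and 83.7 CPM. Thymus 3 stood apart here as it did for mt-Nd6. In the test of variability on the opposite-strand column mt-Nd5 was called (edgeR quasi-likelihood adjusted p = 2.32e-05), as 1 of 15 mitochondrial genes tested, against 0.109% of the 4594 genes tested in that column. The call rests on thymus 3: without it the adjusted p was 0.781, and without thymus 1 or thymus 2 it was 3.92e-12 and 7.89e-21. At an unadjusted p under 0.05 there were 8 of the 15, against 4.4% of all genes tested in that column. The 15 included the minus-strand genes mt-Nd6, mt-Tq, mt-Ta, mt-Tc, mt-Ty, mt-Te and mt-Tp, over which opposite-strand reads are plus-strand RNA. Of these minus-strand genes only mt-Tq was among the 8. Neither the 15 nor the 8 thus counts minus-strand RNA alone, while mt-Nd5 is a plus-strand gene.

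Per kilobase, minus-strand RNA was 23.4, 20.0 and 60.2 CPM over mt-Nd6, 14.3, 10.4 and 45.9 over mt-Nd5, 7.92, 6.41 and 12.6 over mt-Nd4 and 10.2, 7.99 and 13.2 over mt-Cytb. The highest thymus was thus 3.004 and 4.41 times the lowest over mt-Nd6 and mt-Nd5, and 1.97 and 1.65 times over mt-Nd4 and mt-Cytb. As a share of both strands, minus-strand RNA over mt-Nd5 was 1.70%, 1.27% and 5.14%, while over mt-Cytb it was 0.198%, 0.2004% and 0.205%.

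**Figure D5:**
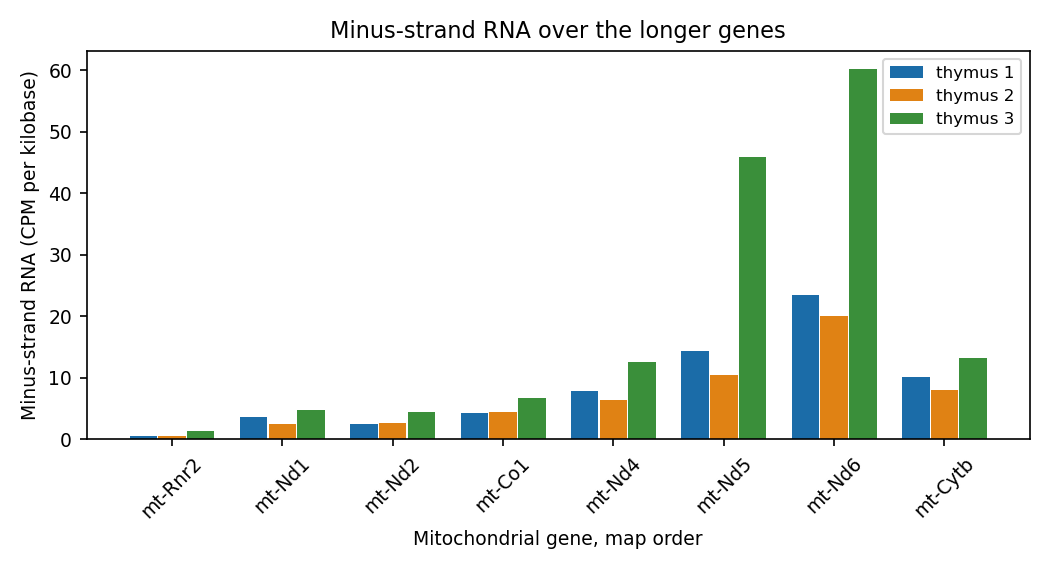
Minus-strand RNA in CPM per kilobase over 8 longer mitochondrial genes in map order, with 1 bar per thymus. Bars of thymus 3 over mt-Nd5 and mt-Nd6 reach 45.9 and 60.2, and no other bar exceeds 23.4.

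The nuclear genes that serve the mitochondrial genome were also read, on the same scale of CPM per kilobase. The 11 transcription genes had a median of 8.40 ± 0.0964 CPM per kilobase (SD, n = 3), led by Mrpl12 at 55.4 ± 7.31 and by Tfam, which packages mitochondrial DNA and starts its transcription, at 25.8 ± 3.27. The 20 genes found for RNA processing, polyadenylation and decay had a median of 7.98 ± 0.730, led by Hsd17b10 and Trmt10c, subunits of the enzyme that cuts transfer RNA ends, at 43.9 ± 1.997 and 27.8 ± 5.75. The 8 DNA replication genes had a median of 5.80 ± 0.161. By the variability test 0 of 11, 0 of 20 and 0 of 8 were called, with 0, 3 and 0 at an unadjusted p under 0.05 (edgeR; 4.42% of all genes tested), and 7, 8 and 2 had the order of the mitochondrial genes, which 25.7% of all genes tested had.

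Nuclear subunits of the same complexes had higher list medians than these 3 groups. Per kilobase, the list medians were 29.1 ± 1.19 CPM for 11 complex I genes, 95.2 ± 9.47 for 9 of complex III, 199 ± 26.6 for 10 of complex IV and 70.4 ± 9.73 for 15 of complex V. mt-Co1 stood at 5802 ± 1124 CPM per kilobase beside Cox8a, the most abundant nuclear gene of complex IV listed, at 271 ± 20.2. mt-Cytb stood at 5171 ± 1212 beside Uqcrh of complex III at 328 ± 56.5. By the variability test 0 were called in each list, with 1, 1, 3 and 2 at an unadjusted p under 0.05 (edgeR; 4.42% of all genes tested), and 3, 3, 4 and 6 had the order thymus 3, 1, 2.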

How the data were processed

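RNA-seq read counts of 3 control thymi were used, 1 library each. The submitters' processing notes name STAR 2.5.3a, DESeq2 and GRCm38. The deposited files hold raw counts in the layout of STAR's gene counting, which takes uniquely mapped reads that touch a single gene: either strand, forward strand and reverse strand. Nothing used here states the annotation release, the read length or any filter. The reverse-strand column was taken as the gene's own strand, as this kind of kit places it there, and the forward-strand column as the opposite strand. It held 30414788, 28587087 and 25408442 reads in genes, 67.7%, 69.1% and 66.4% of all reads. Of 52636 identifiers, 52489 matched GENCODE M21, which gave symbols, positions, lengths and transcript sequences. Of the symbols listed for nuclear genes, 2 for processing and 1 for structural RNA had no match, which can also happen where a gene is listed under an alternative name.

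Genes were filtered with edgeR 4.0.16 (minimum count 10, total 15) in R 4.3.3 and scaled by TMM. Variability was tested with an intercept-only robust quasi-likelihood fit, quasi-dispersion over the trended prior referred to F, one-sided, Benjamini-Hochberg 0.05, over all genes. The test was also run on simulated counts drawn from the means and dispersions of this same fit. Such counts cannot show whether the model suits these libraries. Goodness of fit used a dispersion of 0. DESeq2 1.42.0 gave an alternative. Shared windows and copies (blastn 2.17.0, identity at least 90%, 50 bases) were sought in nuclear transcripts, as no genome sequence was used. The members and lists were chosen with earlier results of these data known. All members may be named, and of each list the 4 most abundant per kilobase and any below 1 CPM. The alternatives covered columns, scaling, filters, the prior, GC content (lowess span 0.3), lengths, window sizes and each library left out. Tests of the forward-strand column under other settings, and leaving out libraries for the strand share of mt-Nd6, were added after seeing the data. Intervals and the limit of 3 reads describe counting error alone, as PCR copies cannot be told apart.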

Additional observations from a re-analysis of the deposited data

How the results depend on the processing

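No paired analysis was possible because the samples form 1 group. The mean share of mitochondrial reads, 2.48% of reads in genes, was 1.68% of all reads. The ratio of the highest to the lowest thymus, 1.41, was 1.36 with all reads as denominator and 1.21 with GC correction, and ranged from 1.19 to 1.41 with 1 library left out. The number of members called variable, 0, was 7 with no filter on low counts, 1 in the forward-strand column (mt-Nd5), 1 by DESeq2 (mt-Nd6) and between 0 and 1 with 1 library left out. It stayed 0 with DESeq2 size factors, library totals, sizes without mitochondrial genes, a mean of at least 5 CPM, the unstranded column, a prior that is not robust and GC correction. The mean opposite-strand share, 2.41%, was 0.323% for plus-strand genes only. It was 5.15% for genes with no 50-base window shared with a nuclear transcript. mt-Nd6 and mt-Cytb are among these, although the annotated copies Gm11408 and Gm11410 match them at 93.6% and 92.9%. The median level of the tested genes, 842 CPM per kilobase as a mean over thymi, was 903 in the unstranded column, 920 per 1000 unique windows, 1396 per kilobase of length less 99 bases (which leaves out shorter genes), and 1401 CPM without division by length. In all, 44 of 59 alternative values of the main results stayed within their spread or within 1.5 times the count. The call of mt-Nd5 on the opposite strand held under 6 of 7 added settings and was lost without thymus 3.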
